A study of Rattus norvegicus with 8 samples.

Results

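Haemoglobin and erythroid genes were measured in thigh (femoris) skeletal muscle of Wistar Han rats. Each rat had its own Illumina expression bead array. The genes were chosen by symbol in the platform's annotation as Hba-a1, Hbb, Hbb-b1, Ahsp and Alas2. They have 5 probes, 1 each, among 22523 probes of the deposited table, and 5 of its 13337 named genes. Of the rats, 4 ate standard laboratory chow and 4 were given, over 28 days, 150 ppm of the sulfonyl isoxazoline (SI) compound 177 in their feed. The study's title places the comparison among models of mitochondrial toxicity in muscle. The labels give no age or sex, and the replicates were taken as separate animals because the design text gives 4 rats per group.

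Haemoglobin, the oxygen carrier of red cells, is assembled from alpha-like and beta-like globin chains, each holding a haem group. Ahsp is a chaperone that keeps free alpha chains from precipitating, and Alas2 is the erythroid form of the enzyme that starts haem synthesis in mitochondria. Circulating red cells of mammals have no nucleus, but the youngest of them, reticulocytes, still carry globin transcripts. Muscle fibres themselves store oxygen on a different globin, myoglobin. In a bulk muscle sample, fewer cells of a type and less RNA per cell cannot be told apart.

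The globin genes are shown by the 250 bases before the transcription start of the 3 members whose probes varied together across the arrays. Capitals mark 4 short motifs searched on both strands: CACCC, the core of the sites of the erythroid factor KLF1; CCAAT, known as the box of that name; GATAA, the core of the sites of the factor GATA1; and ATAAA, part of the TATA box of these genes. The motifs were chosen after the sequences were read, and the last and the one before it can share letters. Sequences are RefSeq's on GRCr8, where 4 of the 5 members matched an entry (Ahsp did not). For Hbb-b1 the start of that entry lies inside the annotated gene, which ends at 167643577, so the window overlaps the gene.
Hba-a1 (GRCr8, chr10:15842581-15842830, minus strand): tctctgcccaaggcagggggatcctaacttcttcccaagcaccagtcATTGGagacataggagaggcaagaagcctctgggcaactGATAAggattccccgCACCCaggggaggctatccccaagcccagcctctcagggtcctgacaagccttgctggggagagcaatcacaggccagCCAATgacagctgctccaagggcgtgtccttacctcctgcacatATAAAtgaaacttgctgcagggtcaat
Hbb (GRCr8, chr1:167663722-167663971, minus strand): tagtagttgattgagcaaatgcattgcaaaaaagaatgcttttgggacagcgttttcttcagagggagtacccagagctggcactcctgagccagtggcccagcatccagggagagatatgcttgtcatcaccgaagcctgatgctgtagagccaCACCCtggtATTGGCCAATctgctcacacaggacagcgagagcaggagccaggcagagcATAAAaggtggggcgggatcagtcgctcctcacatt
Hbb-b1 (GRCr8, chr1:167643521-167643770, minus strand): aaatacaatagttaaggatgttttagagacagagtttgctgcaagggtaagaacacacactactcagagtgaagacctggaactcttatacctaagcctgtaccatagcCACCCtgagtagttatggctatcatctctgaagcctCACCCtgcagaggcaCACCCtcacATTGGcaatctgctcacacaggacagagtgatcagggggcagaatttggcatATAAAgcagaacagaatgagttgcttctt
CCAAT had at least 1 match in each of these 3 promoters. The TATA box letters, ATAAA, had 1 match in each. CACCC matched once in Hba-a1, once in Hbb and 3 times in Hbb-b1. GATAA matched once in Hba-a1, with 0 matches in Hbb and in Hbb-b1. Such letters are common: among 33469 rat promoter windows of the same length, 49.2% held CACCC, 34.0% CCAAT, 23.5% GATAA and 39.3% ATAAA. The Hbb and Hbb-b1 windows were 60.9% identical in a global alignment, and Hba-a1 was 49.5% identical to Hbb. Near copies were far closer. Hba-a1 was 96.4% identical to its copy Hba-a2 over this window, and Hbb-b1 was 97.2% identical to Hbb-b2 and 93.6% to Hbb-bs. The globin genes are a multigene family, so a probe named for one copy may also read others, and the chain is named here as the platform gives it.

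The arrays were first checked for the labelled tissue. All 10 measured skeletal muscle markers passed the filter on dim probes, and their mean level lay between 15.06 and 15.29 on the log2 scale on the 8 arrays. Between 9261 and 10620 probes per array had a detection p below 0.05, and arrays correlated pairwise at 0.965 to 0.991. The arrays numbered 2 in both groups stood apart by liver transcripts. Of 27 liver genes on the array, a list drawn up after this was seen, 25 were detected on control replicate 2 and 21 on compound 177 replicate 2, against 4 to 13 on the other 6 arrays. Their mean level was 9.25 and 7.45 on these 2 arrays and 5.20 to 5.51 on the others. Albumin (Alb) stood at 12.54 and 9.89 there and at 5.26 to 6.78 elsewhere. Control replicate 2 also had the highest level of Myh6, the cardiac alpha myosin heavy chain, at 12.25. Control replicate 1 came next, at 10.16, and the remaining arrays had 5.41 to 8.16. Of 10 heart genes on the array, also listed afterwards, 6 were detected on control replicate 2 and 2 to 4 on each of the others. Their mean level was 6.49 on control replicate 2, 5.89 on control replicate 1 and 5.05 to 5.51 on the remaining arrays. Results on the haemoglobin and erythroid genes are given with all 8 arrays and, because of the liver transcripts, without both arrays numbered 2. Control replicate 1 is kept in both comparisons. What part these transcripts have in the results was not tested.

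Levels below are log2 signals after background correction and quantile normalization, and differences are compound 177 minus control. The 3 haemoglobin members, Hba-a1, Hbb and Hbb-b1, were detected on 8 of 8 arrays. Their group means were lower in treated rats by 0.28 to 0.33, which is less than the spread between the control rats. Ahsp was near background and also lower, by 0.48. None of the 4 members that could be tested passed limma's test at an adjusted p below 0.05, and 0% of the 10212 tested probes passed in either direction. The 2 groups overlapped on all 4 probes, while 0.705% of all tested probes were lower without overlap. Control replicate 2 had the lowest value on each of the 3 haemoglobin probes, while the other 3 control rats lay above all 4 treated rats on all 3 of them.

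**Figure D1:**
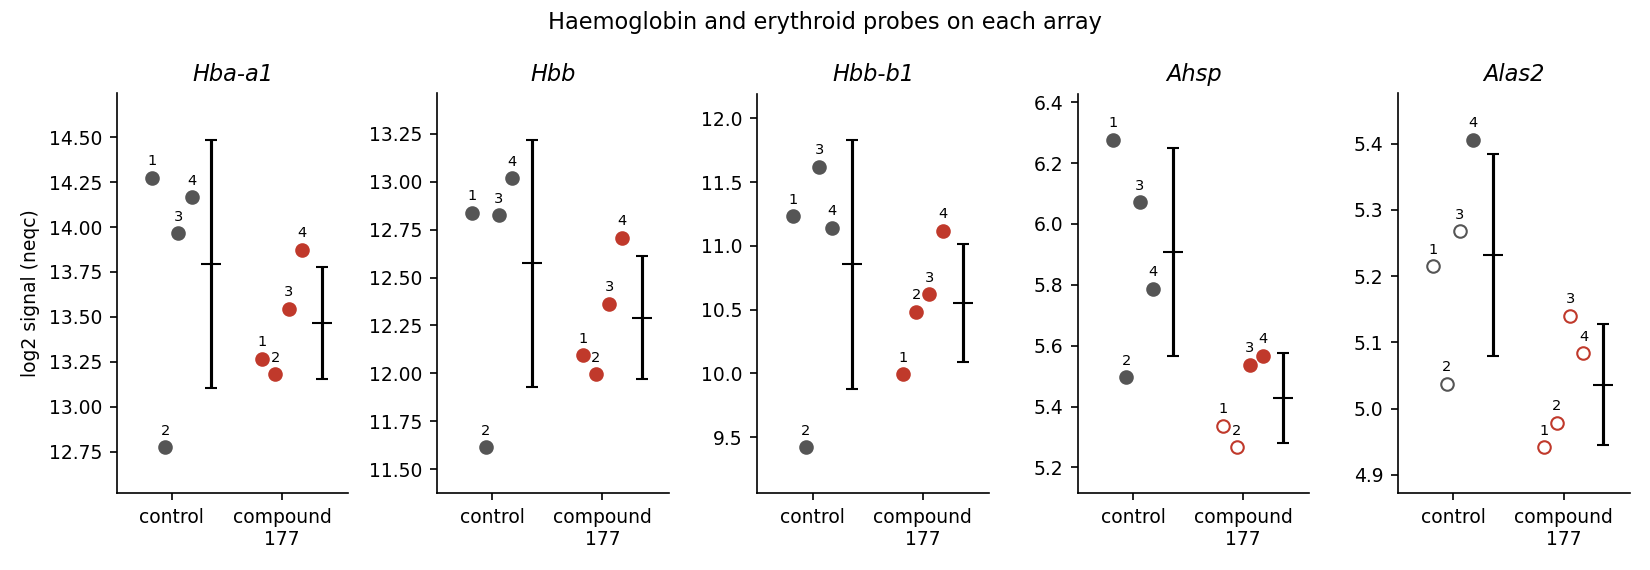
Log2 signal (y axis, a separate scale for each gene) of the 5 member probes on every array, with control rats in grey and rats fed compound 177 in red. Digits are replicate numbers, filled points had a detection p below 0.05, and black bars are the mean ± SD of 4 rats. Control replicate 2 lies lowest on the haemoglobin probes, at 12.78 for Hba-a1 against 13.96 to 14.27 in the other controls.

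Hba-a1, an adult alpha chain of haemoglobin, gave deposited intensities of 23998, 5448, 15914 and 17087 in control rats 1 to 4. In rats fed compound 177 they were 13346, 7319, 11957 and 15206. The highest and the lowest intensity were thus both in control muscle. After normalization the control levels were 14.27, 12.78, 13.96 and 14.16, and the treated levels 13.27, 13.18, 13.54 and 13.87. All 4 treated rats lay below 3 of the controls and above control replicate 2, so the groups overlapped. The means were 13.79 ± 0.69 for control and 13.47 ± 0.31 for treated rats (SD, n = 4), a difference of -0.33 (SE 0.32, 95% confidence interval -1.04 to 0.38). The adjusted p from limma was 0.9999 and the two-sided exact permutation p 0.43. The interval spans a range from a treated level at 0.487 of control to one 1.30-fold higher.

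Hbb, an adult beta chain, ran in parallel to Hba-a1. Its intensities were 8808, 2534, 7175 and 7955 in control rats, and 5957, 3355, 5338 and 6540 in treated rats. Normalized levels were 12.84, 11.62, 12.83 and 13.02 in control rats, and 12.09, 12.00, 12.36 and 12.71 in treated rats. Again control replicate 2 was lowest of all 8 and the other 3 controls were highest. The means of 12.57 ± 0.65 and 12.29 ± 0.32 (SD, n = 4) differed by -0.28 (SE 0.30, interval -0.96 to 0.39), with an adjusted p of 0.9999 from limma and an exact permutation p of 0.46.

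Hbb-b1, another adult beta chain gene, varied more than either. Control levels were 11.23, 9.42, 11.62 and 11.14, and treated levels were 9.99, 10.48, 10.62 and 11.12. Treated rat 4 came close to the lowest of the 3 upper controls, while treated rat 1 lay closest to control replicate 2. The means were 10.86 ± 0.98 for control and 10.55 ± 0.46 for treated rats (SD, n = 4). They differed by -0.30 (SE 0.44, interval -1.29 to 0.69), with an adjusted p of 0.9999 from limma and an exact permutation p of 0.57. Of the 3 haemoglobin probes this one had the widest interval.

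Ahsp, the alpha chain chaperone, was just above background. Its intensities were 165.0, 114.5, 134.6 and 122.1 in control rats and 129.8, 109.5, 108.8 and 110.4 in treated rats. The detection p was below 0.05 on 4 of 4 control arrays and on 2 of 4 treated arrays, those of replicates 3 and 4, so the treated level rests in part on values not well above background. Ahsp could have passed the filter through the control arrays alone. Levels were 6.28, 5.50, 6.07 and 5.79 in control and 5.34, 5.27, 5.54 and 5.57 in treated rats. As with the globins, the treated rats lay below control rats 1, 3 and 4, but here control replicate 2 fell among the treated values.

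The Ahsp means of 5.91 ± 0.34 and 5.43 ± 0.15 (SD, n = 4) differed by -0.48 (SE 0.17, interval -0.87 to -0.09). With limma the unadjusted p was 0.021 and the adjusted p 0.9999, and the exact permutation p was 0.086. At an unadjusted p below 0.05, 3.88% of all probes were called, and Ahsp was 1 of 165 lower ones, 1.62% of those tested. With values raised to the lowest signal detected on each array the difference was -0.39, and without background correction it was -0.24.

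Alas2, the erythroid enzyme that condenses glycine with succinyl-CoA, was not well above background. Its detection p was 0.097, 0.245, 0.069 and 0.035 on the control arrays and 0.406, 0.335, 0.144 and 0.210 on the treated arrays. A single array, control replicate 4, thus passed 0.05, and the probe was not tested. Intensities lay between 91.9 and 111.6. Levels were 5.22, 5.04, 5.27 and 5.41 in control and 4.94, 4.98, 5.14 and 5.08 in treated rats, and no fold is given between values at background.

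The differences were larger when the arrays with liver transcripts were left out, a comparison chosen after the data were seen. With 3 rats per group, Hba-a1 was 14.13 ± 0.16 for control and 13.56 ± 0.30 for treated rats (SD), a difference of -0.57 (SE 0.18, interval -0.99 to -0.16), or 1.49-fold lower in treated rats. Hbb differed by -0.51 (SE 0.17, interval -0.91 to -0.10), Hbb-b1 by -0.75 (SE 0.28, interval -1.40 to -0.11) and Ahsp by -0.56 (SE 0.16, interval -0.93 to -0.20). For these 4 genes the 3 treated rats lay below the 3 control rats without overlap. That separation was met by 3.26% of all tested probes in the same direction. With all arrays, every treated rat already lay below every control except control replicate 2 on these 4 probes. Leaving out that array therefore fixed the separation in advance, and it adds no support. The 4 probes also varied together, so they are not 4 separate observations.

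None of the 4 passed over the table: their adjusted p with limma was 0.9995, and 0% of probes passed. The unadjusted p values from limma were 0.013 for Hba-a1, 0.020 for Hbb, 0.026 for Hbb-b1 and 0.0075 for Ahsp. Over the table, 1.51% of probes were lower at an unadjusted p below 0.05. Leaving out control replicate 2, the lowest control on each of these probes, raised the control means. These p values and the intervals above follow from that choice and add no support. As the 4 probes varied together, their number cannot be set against that share. The exact permutation p was 0.10 for each, the smallest that 3 rats against 3 can give.

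**Figure D2:**
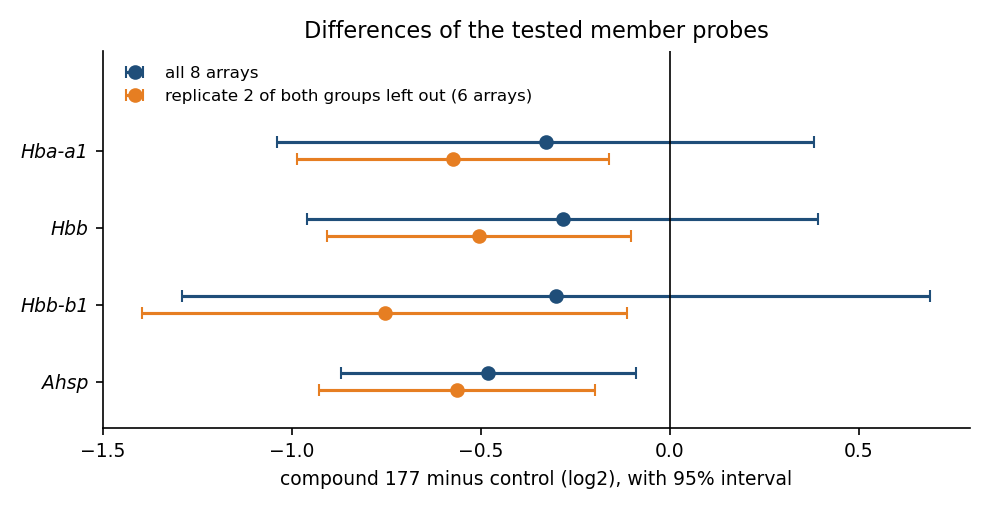
Difference between rats fed compound 177 and control rats on the log2 scale (x axis) for the 4 tested members, as the limma estimate with its 95% confidence interval. Blue points use all 8 arrays and orange points leave out both arrays numbered 2, a choice made after the data were seen. Control replicate 2, left out there, was the lowest control on each of these probes. With 8 arrays the intervals of Hba-a1, Hbb and Hbb-b1 reach above 0, and with 6 arrays all 4 end below 0, at -0.10 to -0.20. Because of that choice of arrays, the intervals with 6 arrays add no support.

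Dropping single arrays moved the haemoglobin values as well. Without control replicate 2 the differences were -0.67 for Hba-a1, -0.60 for Hbb and -0.78 for Hbb-b1, larger than with all arrays. Without control replicate 1 that of Hba-a1 was -0.17, without control replicate 4 that of Hbb was -0.14, and without control replicate 3 that of Hbb-b1 was -0.05. The authors' own normalized values form 2 sets of 4 arrays, replicates 1 and 2 of both groups and replicates 3 and 4 of both. Within the first set, which holds both arrays with liver transcripts, the differences were -0.30 for Hba-a1, -0.18 for Hbb, -0.09 for Hbb-b1 and -0.58 for Ahsp. Within the second they were -0.36, -0.39, -0.51 and -0.38. All these values were below 0, and the lowest adjusted p with limma for any member over all settings was 0.745, for Ahsp with the replicate number as a block.

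The haemoglobin probes varied together from rat to rat. Over the 8 arrays Hba-a1 and Hbb correlated at a Pearson r of 0.98 (exact permutation p = 0.0002, 0.0012 adjusted over the 6 pairs of tested members) and a Spearman rho of 0.98 (exact p = 0.0004, adjusted 0.0024). Without the 2 arrays farthest from the median of Hba-a1, control replicates 1 and 2, their r was 0.9997. Hba-a1 and Hbb-b1 correlated at r = 0.91 (exact p = 0.0018, adjusted 0.0035) and rho = 0.90 (exact p = 0.0046, adjusted 0.0087), with r = 0.85 without those arrays.

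Hbb and Hbb-b1 correlated at r = 0.93 (exact p = 0.0013, adjusted 0.0035) and rho = 0.88 (exact p = 0.0072, adjusted 0.0087), with r = 0.89 without both arrays numbered 2. The difference between the Hba-a1 and Hbb levels had an SD over arrays of 0.10, whereas each probe alone had an SD of 0.53 and 0.50. The pattern also held for deviations from the group means, where r was 0.98 for Hba-a1 with Hbb, 0.91 for Hba-a1 with Hbb-b1 and 0.93 for Hbb with Hbb-b1. All probes of an array share its RNA sample and its labelling. Each normalization set has 4 arrays, too few for a correlation within it.

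Ahsp followed the globins less closely on the linear measure than by rank. It correlated with Hba-a1 at r = 0.79 (exact p = 0.021, adjusted 0.031) and rho = 0.90 (exact p = 0.0046, adjusted 0.0087). With Hbb, r was 0.72 (exact p = 0.045, adjusted 0.053) and rho 0.86 (exact p = 0.011, adjusted 0.011), and with Hbb-b1, r was 0.70 (exact p = 0.053, adjusted 0.053) and rho 0.88 (exact p = 0.0072, adjusted 0.0087). Without the 2 arrays farthest from the median of the globin, these r were 0.85, 0.73 and 0.81. On control replicate 2 Ahsp was 0.17 below its mean over the 8 arrays, whereas the mean of the 3 haemoglobin probes was 0.98 below.

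**Figure D3:**
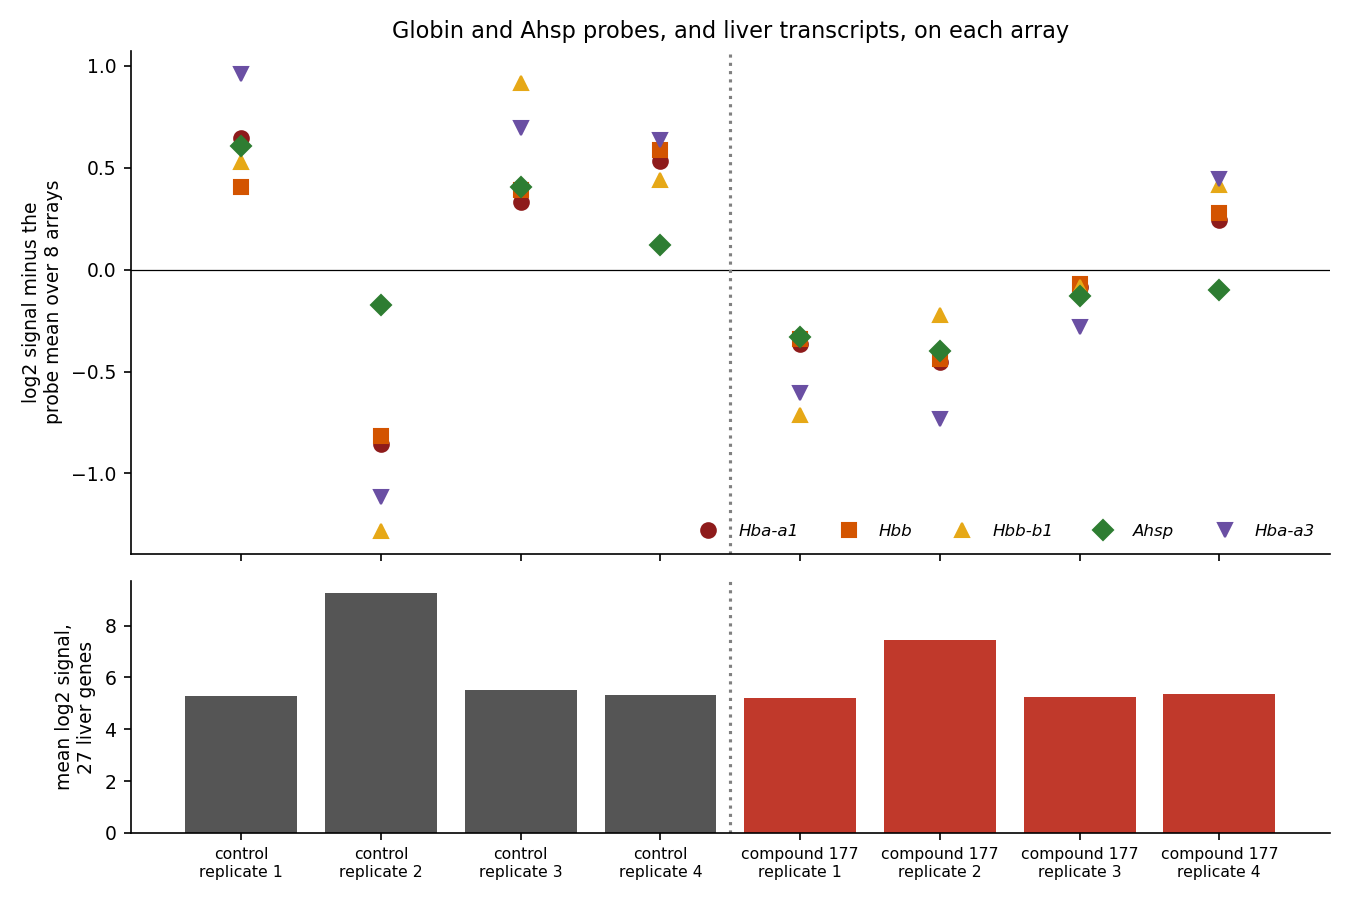
The upper panel shows, for each array, the log2 signal of Hba-a1, Hbb, Hbb-b1, Ahsp and Hba-a3 minus that probe's mean over the 8 arrays. The lower panel shows the mean log2 signal of 27 liver genes on the same arrays, with control in grey and compound 177 in red. The globin markers lie lowest on control replicate 2, the array with the highest liver mean, 9.25. Hba-a1 and Hbb lie close together on each array, while Hbb-b1 and Hba-a3 lie apart from them on some, such as control replicate 3. Compound 177 replicate 1, with the lowest liver mean, 5.20, had a mean globin deviation of -0.51. That of compound 177 replicate 2, with a liver mean of 7.45, was -0.46.

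The remaining globin genes were examined next. Of 16 globin symbols in the list, 8 were on the array and 4 passed the filter, the 3 haemoglobin members and Hba-a3. Hba-a3, another alpha-like chain, had levels of 8.92, 6.84, 8.65 and 8.60 in control and 7.35, 7.22, 7.68 and 8.41 in treated rats. As for Hba-a1, control replicate 2 was lowest and the other controls were the 3 highest. Its means of 8.25 ± 0.95 and 7.66 ± 0.53 (SD, n = 4) differed by -0.59 (SE 0.44, interval -1.58 to 0.41; adjusted p = 0.9999, limma), and by -0.91 (SE 0.26) without the arrays numbered 2. The median over the 4 tested globin genes was -0.31 with all arrays and -0.66 without those 2.

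The embryonic and fetal-type genes Hbe1, Hbe2 and Hbg1 were detected on 0 of 8 arrays. The probe named Hba-a2 was detected on 1 of 8, with intensities of 95.04 to 124.8, although Hba-a2 is the near copy of Hba-a1. Myoglobin (Mb), the oxygen store of muscle fibres, had another order of rats, with control replicate 1 lowest. Its levels were 14.53, 15.02, 15.03 and 15.33 in control and 15.04, 15.10, 15.10 and 15.15 in treated rats, a difference of 0.12 (SE 0.16). Cygb, the cytoglobin of connective tissue cells, differed by 0.004 (SE 0.16), and neither passed.

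Besides the members, the 6 named probes with the pattern most like the haemoglobin probes were found by Pearson's r, as a description over the 8 arrays. Hba-a3 was second, at 0.98. The others were Abhd15, a protein of the alpha/beta hydrolase fold family, at 0.98, Mterf3, a mitochondrial transcription termination factor family member, at 0.98, Szrd1 at 0.97, Det1, an adaptor of ubiquitin ligases, at 0.97, and Rad17, a DNA damage checkpoint protein, at 0.96. These were the top of 7437 named probes, of which 38, or 0.511%, exceeded 0.9. Apart from Hba-a3 their ranges were narrower than those of the globins: Abhd15 ran from 5.62 to 6.50 and Mterf3 from 8.66 to 9.21. Abhd15 differed between groups by -0.18 (SE 0.20), and none of the 6 passed (adjusted p = 0.9999, limma).

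Among genes listed for the red cell outside haemoglobin, those that could be tested were not lower as a group. In the list of red cell membrane and cytosol genes, which includes Ahsp, 21 of 30 were on the array and 12 were tested. Of these, 7 were higher and 5 lower in treated rats, with a median difference of 0.03, and 0 passed in either direction, against a median of 0.01 over all tested probes, of which 46.6% were lower. Of the list, 8 genes were detected on 0 of 8 arrays: Sptb, Rhag, Rhd, Car1, Hemgn, Dmtn, Add2 and Tent5c. Pklr was detected on 1. Epb42, a protein of the red cell membrane skeleton, was dim but detected on 8 arrays, at 5.84 ± 0.06 for control and 5.85 ± 0.12 for treated rats (SD, n = 4). Slc4a1, the anion exchanger band 3, was also detected on 8 arrays, at 6.14 ± 0.23 for control and 6.25 ± 0.20 for treated rats (SD, n = 4). Over the 8 arrays the mean of the 3 haemoglobin probes correlated with Slc4a1 at r = -0.72 and with Epb42 at r = 0.03. With the mean of the list, Ahsp included, r was 0.68 and rho 0.33.

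The non-member genes of this list with the smallest p were Ube2l6, Bpgm and Gypc. Ube2l6, an enzyme that attaches the interferon-induced modifier ISG15, was 5.84 ± 0.30 for control and 6.36 ± 0.36 for treated rats (difference 0.53, SE 0.21), 1 of 231 higher probes at an unadjusted p below 0.05, 2.26% of those tested. Bpgm, which makes the bisphosphoglycerate that lowers oxygen affinity of haemoglobin, was 12.26 ± 0.19 and 12.49 ± 0.19 (difference 0.22, SE 0.14). Gypc, a glycophorin of the red cell membrane, was 10.94 ± 0.17 and 10.77 ± 0.09 (difference -0.17, SE 0.12). Each had an adjusted p of 0.9999 with limma. Several genes of the list, Bpgm and Prdx2 among them, are also expressed outside red cells. The median of the list therefore does not stand for red cells alone.

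Regulators of red cell formation were mostly undetected. Gata1 and Klf1, the main erythroid transcription factors, were detected on 0 of 8 arrays, as were Nfe2, Gfi1b, Bcl11a and Epo. Of 9 such genes on the array 2 were tested, Tal1 (difference 0.09, SE 0.12) and Ldb1 (0.02, SE 0.12), and 0 passed.

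Haem synthesis genes were examined next. Of 12 on the array, Alas2 among them, 9 were tested, 8 of them higher and 1 lower, with a median of 0.11 and 0 passing, beside the median of 0.01 over all probes. Slc25a38, the mitochondrial glycine carrier, differed by 0.20 (SE 0.12), Fech, which inserts iron into the ring, by 0.17 (SE 0.11), and Abcb6, a porphyrin transporter, by 0.16 (SE 0.12). Without the arrays numbered 2 the median was 0.05, with 7 higher and 2 lower. With median scaling it was 0.21, where the median over all probes was 0.06.

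Haem breakdown and haemoglobin scavenging showed the liver pattern in 2 genes. Hp, haptoglobin, the plasma protein that binds free haemoglobin, stood at 10.54 on control replicate 2 and 8.17 on compound 177 replicate 2, against 5.09 to 5.41 on the other arrays. Hpx, haemopexin, the plasma carrier of free haem, stood at 10.31 and 8.12, against 4.92 to 5.60. Both are made chiefly in the liver. They were high on the arrays where Alb was high, and the lowest haemoglobin levels lay on the array where they were highest. Among treated rats the order differed. The mean deviation of the haemoglobin probes was -0.47 on compound 177 replicate 1, where the liver mean was lowest, at 5.20. On compound 177 replicate 2, with a liver mean of 7.45, it was -0.37. What part liver transcripts have in the haemoglobin levels was not tested.

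The other genes of this list had smaller differences. Of 9 genes on the array 7 were tested, 3 higher and 4 lower, with a median of -0.01 and 0 passing. Hp differed by -0.61 (SE 1.22). Hmox1, the inducible haem oxygenase, was 6.94 ± 0.28 for control and 6.92 ± 0.36 for treated rats (SD, n = 4). Hmox2, the constitutive form, differed by 0.09 (SE 0.16), Blvrb, a biliverdin reductase, by 0.09 (SE 0.14), and Cd163, the macrophage receptor for haemoglobin bound to haptoglobin, by -0.25 (SE 0.26).

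Iron genes gave a similar picture. Of 12 on the array 10 were tested, 6 higher and 4 lower, with a median of 0.03 and 0 passing. Tf, transferrin, the plasma iron carrier made mainly in the liver, was 13.92 on control replicate 2 and 12.14 on compound 177 replicate 2, and 9.86 to 10.53 elsewhere. Hamp, the liver hormone hepcidin, was detected on control replicate 2 alone. Fth1, the ferritin heavy chain, differed by 0.09 (SE 0.13) and Steap3, an iron reductase, by 0.09 (SE 0.11). Tfrc, the transferrin receptor, was 7.22 ± 0.85 for control and 7.39 ± 0.25 for treated rats, lowest on control replicate 2 at 6.29.

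Markers of other blood cells were sparse. Of 13 neutrophil and mast cell markers on the array 3 were tested, with 0 higher, 3 lower and a median of -0.11, and S100a8 and S100a9 did not pass the filter. Of 5 platelet markers 1 was tested, Pf4 (8.46 ± 0.32 for control and 8.03 ± 0.74 for treated rats, difference -0.43, SE 0.33). Gp9, Gp1bb and Gp5 were detected on 0 of 8 arrays and Ppbp on 2, so Pf4 alone does not stand for platelets. Pf4 was lowest on compound 177 replicate 2, at 7.12, where the mean of the macrophage list was also lowest, at 6.41. Of 8 lymphocyte markers 2 were tested, with a median of 0.09. Mean levels of the neutrophil and mast cell list ran from 5.65 to 6.40 in control and from 5.63 to 6.49 in treated muscle.

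Markers of cells that reside in muscle were examined last. Endothelial markers, which stand for the vessels that hold the blood, had 6 of 9 members higher and 3 lower, with a median of 0.06. Plvap, a protein of endothelial diaphragms, was the 1 endothelial marker with an unadjusted p below 0.05. It was 10.16 ± 0.36 for control and 9.57 ± 0.35 for treated rats (SD, n = 4), a difference of -0.59 (SE 0.22, interval -1.08 to -0.10; adjusted p = 0.9999, limma). The mean level of the endothelial list ran from 8.19 to 8.31 in control and from 8.20 to 8.37 in treated muscle. Macrophage markers were lower in 8 of 8 tested members with all arrays (median -0.34), and in 7 of 8 without the arrays numbered 2 (median -0.05). In these cell type lists 0 genes passed in either direction.

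**Figure D4:**
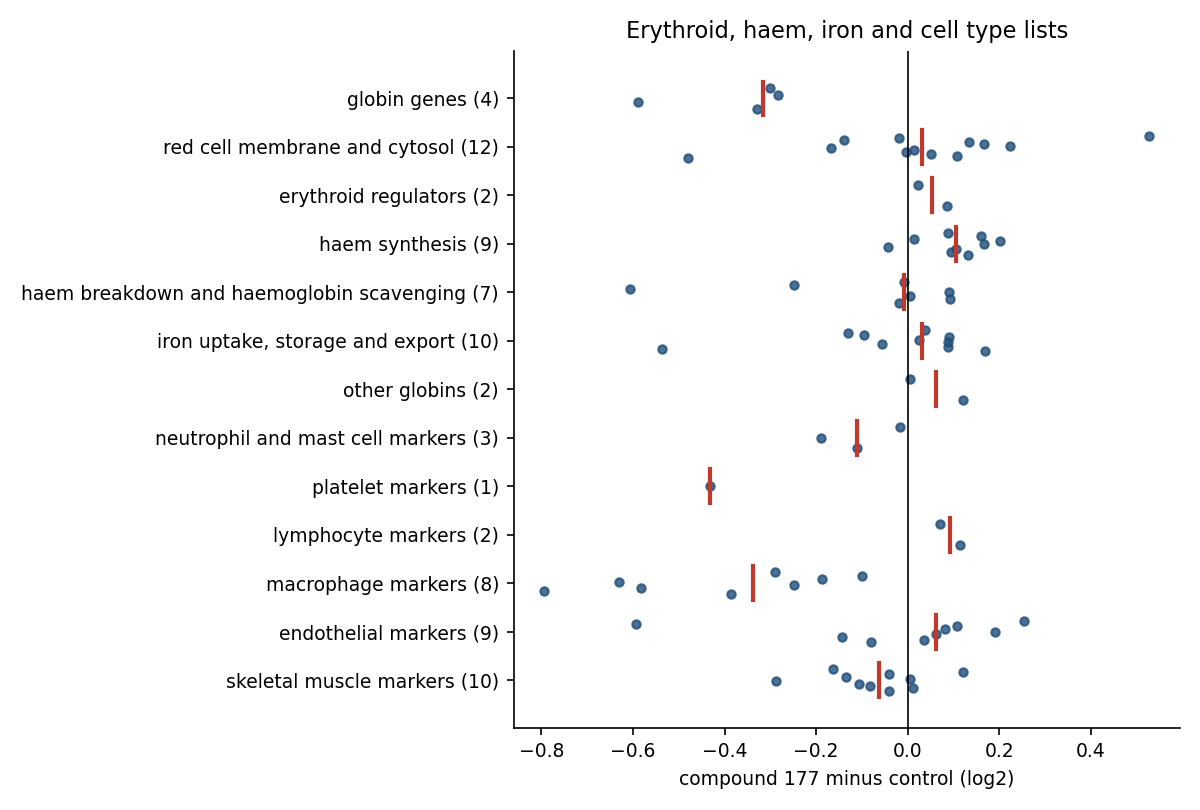
Difference between rats fed compound 177 and control rats on the log2 scale (x axis) for each tested gene (points) of the erythroid, haem, iron and cell type lists, with the list median in red and the number of tested genes in brackets. The 4 globin genes lie between -0.59 and -0.28, with a median of -0.31. The medians of the other red cell, haem and iron lists lie between -0.01 and 0.11, and their single genes between -0.61 and 0.53. Macrophage markers had a median of -0.34, and Pf4, the 1 tested gene of the platelet list, was at -0.43.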

How the data were processed

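RNA of 8 thigh muscles was amplified and biotin-labelled, according to the labels' protocols. The authors deposited a table of linear intensity per probe, not normalized between arrays, with a detection p-value per probe and array per the file headers. Their deposited normalized intensity table was an alternative only. The sources used here do not give the scanner software.

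Intensities were background-corrected with the deposited detection p-values, offset by 16, quantile-normalized and taken to log2 by the neqc function (limma 3.58.1, R 4.3.3). Probes with a detection p below 0.05 on at least 4 arrays were tested (10212), with lmFit and eBayes without covariates and Benjamini-Hochberg adjustment. Symbols came from the platform annotation: 13793 probes had 1 symbol, 0 several and 8730 none. A gene with several probes took the one with the highest mean signal. The fit was tested on simulated data. The number of arrays limits precision: the median half-width of a 95% interval was 0.35. Promoters were aligned with Biopython 1.88.

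The members and lists were chosen with earlier results of these data known, and the liver and heart lists after these values were seen. Named genes are the members, up to 3 genes per erythroid, haem and iron list with the smallest p, and the 6 probes most like the haemoglobin probes. Liver genes, undetected genes and other genes named for their role were added after their values were seen.

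Replicate numbers were checked for pairing: deviations from the group means correlated between same-numbered arrays at 0.24, 0.47, 0.12 and 0.43. For 6 of the 8 arrays the best match in the other group had the same number. The primary comparison has no block, so its SEs leave this likeness out. With the number as a block the SE of Hba-a1 was 0.22, against 0.32 without it. With the number as a block 657 probes had an unadjusted p below 0.05, against 396 (3.88%) without it, and 0 passed after adjustment in either. Other alternatives were background corrections, median scaling, filters, the normalization set as a block, array weights, and leaving out arrays. Those runs kept the normalization of all 8 arrays.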

Additional observations from a re-analysis of the deposited data

Results flagged for a closer look

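Values far from the other 3 rats of their group, by Dixon's test, were found in 6 of 34 sets of 4 rats, where chance gives about 1 in 20. Of these, 4 were control replicate 2. Its Hbb level was 11.6, and its mean deviation was -1.02 for the globin genes, -0.112 for red cell membrane and cytosol genes and 0.586 for haem breakdown and haemoglobin scavenging genes, the list that holds Hp. This is the array with the highest liver transcripts. The lymphocyte list mean was 0.737 on compound 177 replicate 2, the other array with liver transcripts, from 2 tested genes. The macrophage list mean was -0.227 on control replicate 4. No cause of these values was tested. The 34 sets reuse the same arrays, and the globin list holds Hba-a1, Hbb and Hbb-b1, which were also counted singly. An excess over chance therefore cannot be read from the count.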

How the results depend on the processing

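Differences of the 4 tested members kept their sign and stayed above an adjusted p of 0.05 under 22 alternatives for Hba-a1, Hbb and Hbb-b1 and 21 for Ahsp, which was not tested among probes detected on all 8 arrays. With 1 array left out at a time they ran from -0.67 to -0.17 for Hba-a1, -0.60 to -0.14 for Hbb, -0.78 to -0.05 for Hbb-b1 and -0.62 to -0.36 for Ahsp. With the mean of the liver genes as a covariate, an alternative chosen after seeing the data, they were -0.48, -0.43, -0.48 and -0.54. Median scaling gave -0.21, -0.18, -0.25 and -0.43. The replicate block left the differences as they were, at an adjusted p of 0.757 for Hba-a1 with limma, and changed no call. The normalization set as a block and the changes of filter also left them as they were. These settings could not change the sign, so they add nothing to the count of alternatives that kept it.

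The number of probes passing was 0 under every setting, with a smallest adjusted p of 0.127. Probes with an unadjusted p below 0.05 numbered 396, 954 with no filter on dim probes, which tests more probes, and 657 with the replicate block, and 260 to 559 with 1 array left out, 260 being without control replicate 3. Some list medians moved by more than their spread. With median scaling haem synthesis had 0.21 and skeletal muscle markers 0.049, against -0.061. Endothelial markers, at 0.062, had -0.060 within normalization set 1 and 0.19 within set 2, and -0.018 to 0.11 with 1 array left out. For these the cause was not tested. The median of the globin genes was below 0 under 20 of 20 alternatives, all of which reuse the same arrays. Both blocks and the filter for detection on all 8 arrays left it at -0.31. These could not change its sign, so they add nothing to that count. Low signal over background limits Ahsp, whose difference ran down to -0.24 without background correction, and Alas2.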
